A study of Homo sapiens with 54 samples.

Results

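The genes described here are 10 members of the BCL2 family, which decides at the mitochondrion whether a cell survives or dies. They were taken by symbol from both deposited count tables, and all 10 of 10 were found among 33119 symbols. Members of this family act through their proteins. BH3-only proteins such as BIM, BMF, PUMA and NOXA bind and block the survival proteins BCL2, BCL-XL and MCL1 or, for some of them, switch on the pore formers BAX and BAK directly. BID, also a BH3-only protein, carries the signal of death receptors to the same pore formers once a caspase has cut it. Oligomers of BAX and BAK release cytochrome c, which starts the caspases. In cells that depend on a growth factor kinase, BIM is known as a target of the ERK pathway, which marks it for destruction, and BIM and BMF are known to mediate death after kinase inhibitors. RNA levels say nothing of protein levels, and MCL1, NOXA and BIM proteins turn over fast.

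The RNA came from 6 established human cancer cell lines grown in the same medium with serum and antibiotics. The colorectal lines were SW48 and SW620, the stomach lines MKN-45 and NCI-N87, and the breast lines BT-474 and BT-20. The groups were SW48 and SW620 cells with trametinib (which blocks MEK1 and MEK2, the kinases that activate ERK), SW48 and SW620 cells with palbociclib (which blocks CDK4 and CDK6 and so entry into the cell cycle), NCI-N87, MKN-45, BT-20 and BT-474 cells with afatinib (which binds EGFR, ERBB2 and ERBB4 covalently), and the untreated controls of each line. The trametinib arms of SW48 and SW620 occur in both of 2 sets of libraries, each with its own controls, and the other arms in set 2 alone. Every group held 3 libraries, which makes 12 libraries in set 1 and 42 in set 2, in 18 groups. The sources used here state neither dose nor exposure time. Whether libraries of 1 group stem from different cultures is not stated either, so the p-values cover only the variation among libraries, and that variation may be technical. Only 3′ ends of transcripts were sequenced, so each value is a count of transcript ends, printed as CPM (the count over the library's scaled total). In these bulk samples, fewer cells of a type and less RNA per cell cannot be told apart.

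Library totals ran from 4063382 to 10622670 counts in set 1 and from 3401565 to 12806042 in set 2. The labels were checked on marker lists of 6 genes each. In set 2 controls the breast markers summed to 1013 to 1027 CPM in BT-474 and 338 to 398 CPM in BT-20. They summed to 118 to 144 CPM in SW48, 93.3 to 113 CPM in NCI-N87, 66.8 to 94.2 CPM in MKN-45 and 8.03 to 11.6 CPM in SW620. The colon markers summed to 119 to 130 CPM in SW48 and 109 to 115 CPM in SW620, against 13.7 to 18.1 CPM in BT-20 and 4.97 to 7.52 CPM in BT-474. The stomach markers did not follow the labels, with 4.25 to 7.60 CPM in NCI-N87, 145 to 160 CPM in MKN-45, and 335 to 356 CPM in BT-474, where TFF1 alone gave 339 CPM. The colon list did not separate colorectal from stomach lines, being higher in NCI-N87 (252 to 291 CPM) and MKN-45 (135 to 140 CPM) than in either colorectal line. CDX1 had a mean of 0 CPM in the controls of every line but NCI-N87, where it was 0.0627 CPM. Libraries of the 2 sets that carry the same line name also stood apart. The receptor gene ERBB2 averaged 990 CPM in SW48 controls of set 1 and 99.5 CPM in those of set 2, and in SW620 controls the set 1 mean of GATA3 was 78.2 CPM and its set 2 mean 6.19 CPM, while CDX2 averaged 2.78 CPM and 33.7 CPM in sets 1 and 2. PGR ran from 0.206 to 195 CPM over the SW620 controls of set 1 and reached at most 0.114 CPM in those of set 2. Whether libraries of the same line name hold the same cells in both sets was not tested, so SW48 and SW620 in set 1 are names from the labels, levels are set side by side only within a set, and an effect seen in both sets is not given as a repeat. Within groups, SW620 control 3 of set 1, NCI-N87 control 1 and SW620 trametinib 3 of set 2 stood apart for several members, and their values are given with the results they touch.

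Sequence upstream of 4 of the BH3-only genes (BCL2L11, BMF, BBC3 and PMAIP1) is shown because these genes include PMAIP1 and BMF, which changed strongly in SW48, and are known targets of stress and forkhead transcription factors. RefSeq promoters on GRCh38.p14 were found for 9 of the 10 members (not MCL1), and the 250 bases before the first listed start of transcription are printed 5′ to 3′ on the strand of the gene. Capitals mark matches, on either strand, to 4 motifs: GTAAACA (the forkhead core bound by FOXO factors), TGACG (the short core of the cyclic AMP response element, bound by ATF and CREB factors), TGATGNAA (the composite element of ATF4 and a C/EBP partner) and CACGTG (the E box).
BCL2L11, chr2:111120664-111120913, plus strand: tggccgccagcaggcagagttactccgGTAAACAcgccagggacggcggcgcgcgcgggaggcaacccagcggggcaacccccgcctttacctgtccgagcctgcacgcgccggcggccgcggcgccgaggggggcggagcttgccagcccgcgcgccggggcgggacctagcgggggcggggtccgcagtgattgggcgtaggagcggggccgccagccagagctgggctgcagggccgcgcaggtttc
BMF, chr15:40108880-40109129, minus strand: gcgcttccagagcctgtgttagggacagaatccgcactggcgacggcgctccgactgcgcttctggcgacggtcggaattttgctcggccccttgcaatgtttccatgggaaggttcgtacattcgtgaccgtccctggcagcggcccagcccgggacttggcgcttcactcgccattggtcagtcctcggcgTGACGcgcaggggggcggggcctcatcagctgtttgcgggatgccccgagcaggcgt
BBC3, chr19:47232668-47232917, minus strand: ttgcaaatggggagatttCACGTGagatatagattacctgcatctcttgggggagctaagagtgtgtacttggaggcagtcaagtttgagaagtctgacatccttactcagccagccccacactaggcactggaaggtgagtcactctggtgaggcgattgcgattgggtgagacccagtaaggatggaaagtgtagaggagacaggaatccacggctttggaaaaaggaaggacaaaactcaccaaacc
PMAIP1, chr18:59899746-59899995, plus strand: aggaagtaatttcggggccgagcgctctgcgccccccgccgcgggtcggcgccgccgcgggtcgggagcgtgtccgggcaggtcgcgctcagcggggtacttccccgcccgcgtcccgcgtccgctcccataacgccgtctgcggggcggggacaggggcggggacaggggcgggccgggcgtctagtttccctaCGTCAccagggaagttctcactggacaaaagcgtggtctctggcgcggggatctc
The BCL2L11 stretch held the forkhead core, from 223 to 217 bases before the start, a motif found in 3.42% of 35116 RefSeq promoters that run from 250 bases before to 50 after the start. BMF and PMAIP1 each held the core TGACG, or its reverse complement, at 57 to 53 and 55 to 51 bases before the start, which 24.6% of promoters held, and BBC3 held the E box at 232 to 227 bases before the start, which 7.26% held. The ATF4 composite, present in 3.62% of promoters, matched none of the 15 promoters listed for the members. In BAX the promoter held 4 E boxes, one of which overlaps a TGACG core. A match is a description of letters and shows no binding.

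In untreated cells all 10 members differed between the 6 lines of set 2 (edgeR quasi-likelihood F-test, adjusted p 5.2e-13 to 0.00091 after Benjamini-Hochberg adjustment over 15211 genes), but so did 97.1% of all genes tested, so the lines as a whole differed and the members did not stand out. BCL2, the founding survival gene of the family (chromosome 18, 63123346 to 63320128, minus strand; all gene positions are GENCODE 29 on GRCh38), spanned the widest range, with 27.7 ± 4.54 CPM in BT-474 (mean ± SD, n = 3 here and below) and 0.294 ± 0.408 CPM in BT-20, where the 3 controls held 0, 1 and 6 counts. SW48 came next to BT-474 at 11.5 ± 1.10 CPM, and SW620 (4.24 ± 0.276 CPM) lay above NCI-N87, MKN-45 and BT-20, of which each overlapped the next in that order. MCL1 (chromosome 1, 150574551 to 150579738, minus strand) ran from 446 ± 27.6 CPM in BT-474 and 383 ± 52.8 CPM in MKN-45, whose libraries overlapped, to 178 ± 8.84 CPM in SW620. BCL2L1, which encodes BCL-XL (chromosome 20, 31664452 to 31723989, minus strand), was highest in the colorectal lines, at 107 ± 17.8 CPM in SW620 and 99.8 ± 3.92 CPM in SW48, and lowest in BT-20 at 42.2 ± 1.22 CPM.

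The BH3-only genes BBC3, PMAIP1, BMF and BCL2L11 each had their own order of lines. BBC3, which encodes PUMA (chromosome 19, 47220822 to 47232766, minus strand), averaged 235 ± 31.2 CPM in SW48, 167 ± 89.4 CPM in NCI-N87, 125 ± 2.95 CPM in BT-474 and 28.8 ± 4.72 CPM in MKN-45, an 8.16-fold range. In NCI-N87 the controls split, with 67.7 CPM in control 1 against 193 and 241 CPM in the other two. PMAIP1, which encodes NOXA, an antagonist of MCL1 (chromosome 18, 59899948 to 59904306, plus strand), was highest in SW48 at 92.0 ± 5.06 CPM, above every library of BT-474 (48.2 ± 3.02 CPM), and lowest in NCI-N87 and MKN-45 at 16.8 ± 1.53 and 15.8 ± 2.87 CPM. BMF, a BH3-only gene whose protein is held at the cytoskeleton (chromosome 15, 40087890 to 40108892, minus strand), stood at 11 ± 1.72 CPM in BT-474 and under 1 CPM on average in SW620 (0.726 ± 0.152 CPM) and SW48 (0.547 ± 0.510 CPM). BCL2L11, which encodes BIM (chromosome 2, 111119378 to 111168447, plus strand), varied only 2.38-fold, with 40.2 ± 0.642 CPM in BT-20 and 16.9 ± 6.65 CPM in NCI-N87.

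BAK1 and BID varied least between the lines. BAK1 (chromosome 6, 33572547 to 33580293, minus strand) had 21.1 ± 3.33 CPM in SW48 and 12.5 ± 1.11 CPM in SW620, a 1.69-fold range in which every line overlapped the next in the order. BAX (chromosome 19, 48954815 to 48961798, plus strand) had 19.7 ± 2.24 CPM in MKN-45 and 7.87 ± 0.542 CPM in NCI-N87, a 2.50-fold range. BID (chromosome 22, 17734138 to 17774770, minus strand) had 72.6 ± 4.09 CPM in NCI-N87 and 39.1 ± 2.57 CPM in MKN-45, so the stomach lines stood at opposite ends for both genes. Exons of BCL2L1, BCL2L11 and BMF share 1424, 727 and 461 bases with genes on the opposite strand (ABALON, MIR4435-2HG and BMF-AS1), and whether counting used the strand is not stated. In each line the level of 1 gene, not the ratio between genes, is described, since ends of different transcripts are not captured equally.

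**Figure D1:**
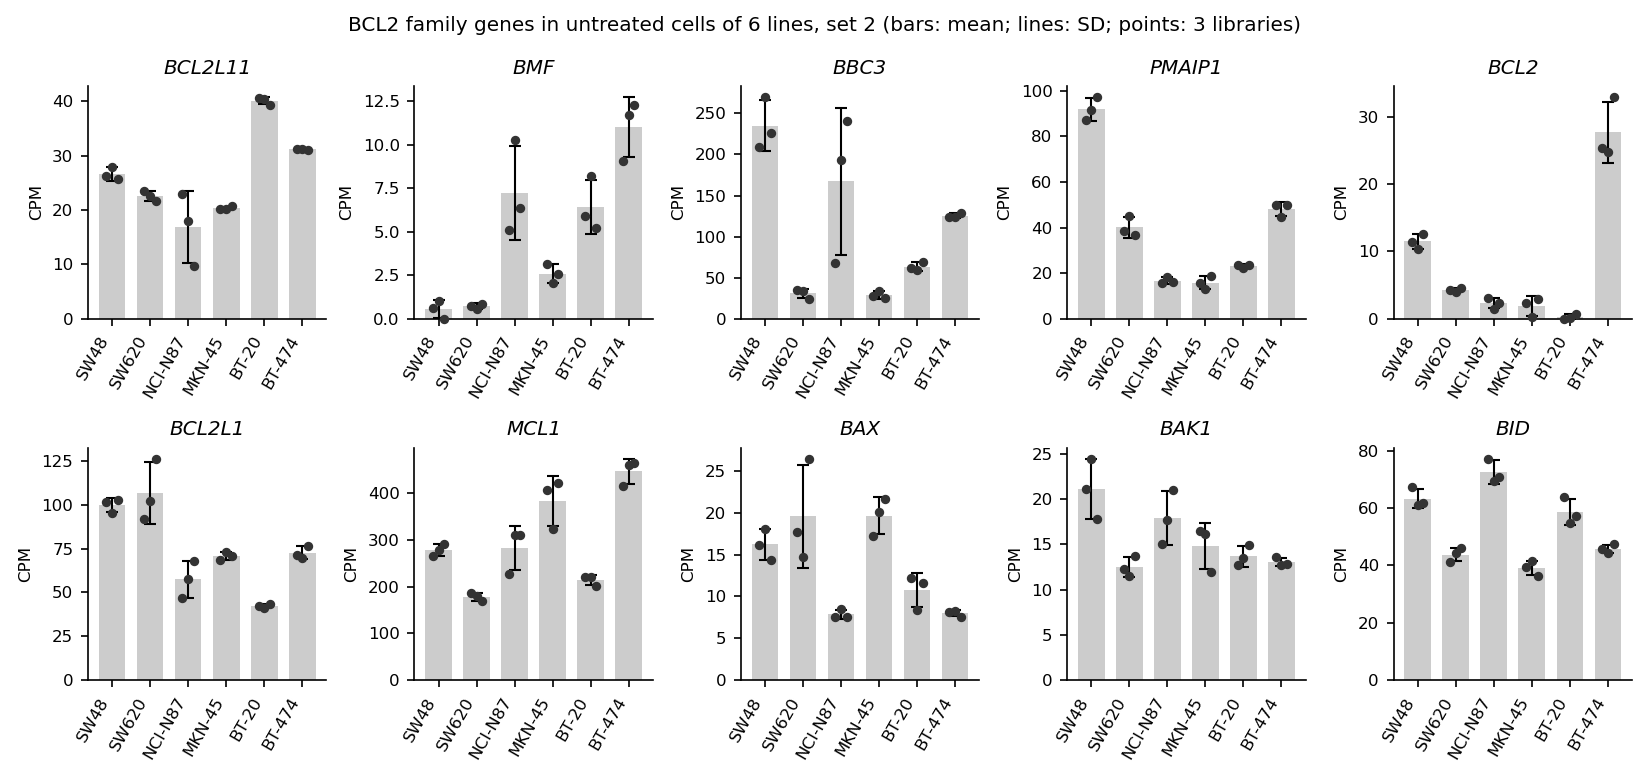
Each panel shows the CPM of 1 gene (vertical axis, linear, from 0) in the untreated controls of the 6 lines of set 2; bars are means of 3 libraries, lines are SDs and points are libraries. SW48 has the highest bars for BBC3 and PMAIP1, BT-474 for BCL2, BMF and MCL1, and BAK1 is nearly level.

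With drugs, the members were tested 96 times in the 10 comparisons of a drug with the controls of its line and set, and 30 tests passed an adjusted p under 0.05, 11 with higher and 19 with lower RNA. BMF was not tested in 3 comparisons and BCL2 in 1, where their counts were too low for the filter. Trametinib in SW48 changed 5 of 10 members in set 1, all lower, where 16% of the 12235 genes tested rose and 19.4% fell, and 8 of 10 in set 2 (1 higher, 7 lower), where 30.1% of 12688 genes rose and 30.1% fell. The median log2 fold change of the members was -0.43 and -0.38 in the 2 sets, against 0.01 over all genes in both. Palbociclib in SW48 changed 6 of 9 members (2 higher, 4 lower; 28.3% of 12690 genes rose and 29.2% fell). In SW620 it changed 7 of 9, with 5 higher and 2 lower (17.6% of 13068 genes rose and 17.4% fell), and the median of the members was 0.31, against 0.00 over all genes. Afatinib in BT-474 changed 4 of 10 members (3 higher, 1 lower), a share near that of all genes, of which 20.9% rose and 21.8% fell.

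No member passed the test in the other 5 comparisons, in 4 of which no gene passed at all (0% higher and 0% lower) in edgeR's test. These were trametinib in SW620 in set 1 (366 of 13081 genes at an unadjusted p under 0.05; DESeq2 called 14) and in set 2 (2204 of 12919; DESeq2 called 208), and afatinib in NCI-N87 (1523 of 12472; DESeq2 called 37) and in MKN-45 (664 of 12358; DESeq2 called 0). DESeq2 called 0 members in each of the 4. These counts of 0 depend on the fit: without a filter on low counts edgeR called 398 genes for SW620 in set 2 and 197 for NCI-N87, and with every group fitted together 632 and 1427, besides 2 for SW620 in set 1 and 7 for MKN-45. In BT-20 afatinib raised 0.273% and lowered 0.312% of 12810 genes and no member of 9 passed. Of all genes in BT-20, DESeq2 called 163, edgeR without a filter 497 and with every group fitted together 12, and leaving out single libraries gave 6 to 96. Leaving out NCI-N87 control 1 gave 2 of 10 members (BBC3 and MCL1), where 16.4% of all genes passed, and leaving out SW620 trametinib 1 of set 2 gave 1 (BCL2L11), where 6.71% passed. A missing call in these lines does not show that a member did not change. Marker lists moved with each drug. In SW48 of set 1 the colon list summed to 411 to 472 CPM with trametinib, against 122 to 148 CPM in controls, and the mesenchymal list of 7 genes to 75.4 to 99.9 CPM, against 7.47 to 21.5 CPM in controls. With trametinib the colon list summed to 269 to 296 CPM in SW48 of set 2, against 119 to 130 CPM in controls, with afatinib the stomach list to 542 to 602 CPM in BT-474, against 335 to 356 CPM in controls, and with palbociclib the mesenchymal list to 331 to 543 CPM in SW620, against 256 to 268 CPM in controls. The share of reads from the mitochondrial ribosomal RNA genes moved too. In SW48 it was 2.25% to 3.33% with trametinib and 2.93% to 4.52% with palbociclib in set 2, against 0.970% to 1.60% in controls, and 4.64% to 5.64% with trametinib in set 1, against 1.63% to 3.81% in controls. The part of these markers and shares in the changes of the members was not tested.

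**Figure D2:**
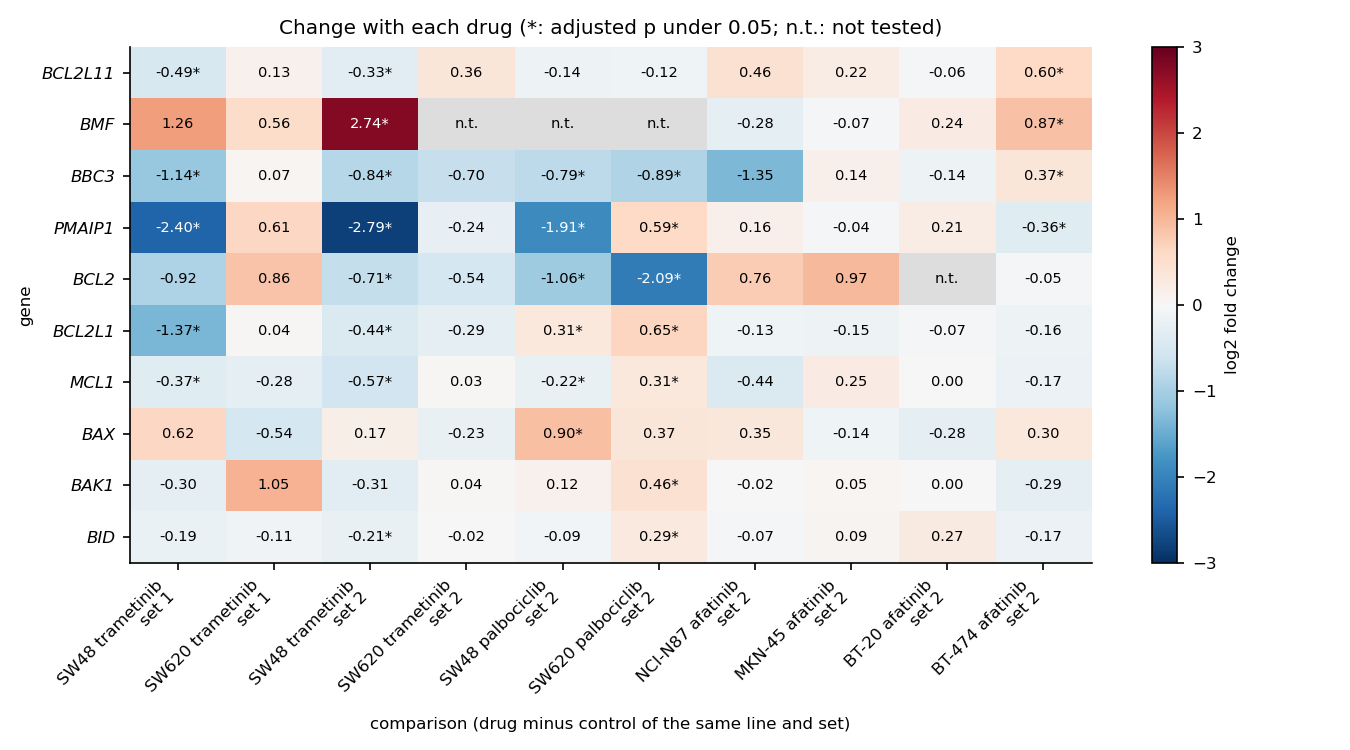
Rows are the 10 genes and columns the 10 comparisons; colour and the number in each cell give the log2 fold change, drug minus control, an asterisk marks an adjusted p under 0.05 and grey cells were not tested. SW48 columns hold the strongest blue for PMAIP1 (-2.40, -2.79 and -1.91), while the SW620 column of palbociclib is red for PMAIP1 (0.59) and BCL2L1 (0.65).

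PMAIP1 (NOXA) fell in SW48 with both drugs and rose in SW620 with palbociclib. In SW48 of set 2 it stood at 11.2, 13.1 and 16 CPM with trametinib and 24.1, 27.4 and 22.2 CPM with palbociclib, against 87.2, 91.6 and 97.3 CPM in controls. The 3 groups did not overlap, and both drugs lowered the gene, trametinib by 6.94-fold (log2 fold change -2.79, SE 0.10, adjusted p = 2.7e-10) and palbociclib by 3.77-fold (-1.91, SE 0.09, adjusted p = 3e-10). In set 1 the libraries had 14.5, 12.5 and 14.1 CPM with trametinib, against 76.1, 73.4 and 69.0 CPM in controls, a 5.27-fold lower level (-2.40, SE 0.13, adjusted p = 1.1e-05). SW620 went the other way with palbociclib: 59.1, 59.4 and 60.4 CPM, against 38.5, 45.2 and 36.7 CPM in controls, all treated libraries above all controls (0.59, SE 0.10, adjusted p = 0.0011). With trametinib SW620 had 38.9, 35.2 and 27.6 CPM in set 2, within reach of its controls (-0.24, SE 0.14, adjusted p = 0.39). In set 1 the values were 34.8, 32.4 and 36.9 CPM with trametinib, against 26.7, 32.8 and 8.51 CPM in controls, where control 3 stood apart (0.61, SE 0.46, adjusted p = 0.92; 0.23 without that control). Afatinib lowered PMAIP1 in BT-474 to 36.1, 31.8 and 43.8 CPM, against 50.1, 44.7 and 49.7 CPM in controls (-0.36, SE 0.11, adjusted p = 0.02). That call was lost when BT-474 control 1, control 3, afatinib 1 or afatinib 2 was left out (-0.35 to -0.27, adjusted p 0.055 to 0.077) and with every group of that set fitted together (adjusted p = 0.06). BT-20, NCI-N87 and MKN-45 gave 0.21, 0.16 and -0.04 with afatinib, none past the test.

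BBC3 (PUMA), a target of p53 that binds all the survival proteins, was lower in each SW48 comparison and with palbociclib in SW620. In SW48 of set 2 the libraries had 122, 145 and 131 CPM with trametinib and 143, 136 and 131 CPM with palbociclib, against 209, 270 and 226 CPM in controls. The treated groups overlapped each other and lay below all controls (trametinib -0.84, SE 0.09, adjusted p = 6.4e-06; palbociclib -0.79, SE 0.09, adjusted p = 2.1e-06). Set 1 gave 122, 116 and 138 CPM with trametinib, against 271, 272 and 291 CPM in controls (-1.14, SE 0.09, adjusted p = 8.3e-05). In SW620 BBC3 fell with palbociclib to 19.4, 15 and 14.7 CPM, against 34.8, 33.7 and 24.3 CPM in controls (-0.89, SE 0.16, adjusted p = 0.0017). With trametinib the SW620 libraries of set 2 spread over 27.5, 22.0 and 7.34 CPM, library 3 standing far below the others, and the change of -0.70 (SE 0.36) did not pass (adjusted p = 0.34). BT-474 went up with afatinib, to 137, 161 and 186 CPM, against 124, 124 and 129 CPM in controls (0.37, SE 0.09, adjusted p = 0.0061). That call was lost with every group of that set fitted together (adjusted p = 0.35). In NCI-N87 afatinib libraries had 79.7, 75.8 and 39.4 CPM, against 67.7, 193 and 241 CPM in controls, and the change of -1.35 (SE 0.41) did not pass (adjusted p = 0.37). Without control 1 it was -1.72 with an adjusted p of 0.002, and it also passed without a filter and with every group fitted together (adjusted p 0.0033 to 0.0042). Control 1 had 8.15% of its reads from the mitochondrial ribosomal RNA genes, against 3.39% and 3.18% in controls 2 and 3. The afatinib libraries had 4.96% to 10.3%, and the part of this share in the NCI-N87 values was not tested.

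BCL2L11 (BIM) rose in BT-474 alone among the calls. Afatinib libraries had 49.2, 42.2 and 49.8 CPM, against 31.3, 31.2 and 31.1 CPM in controls, a 1.52-fold higher level with no overlap (0.60, SE 0.09, adjusted p = 0.00021). The call held in all 12 alternatives, with an adjusted p of 3.7e-05 to 0.0024. In SW48 trametinib gave 21.1, 20.2 and 23.3 CPM in set 2, against 26.3, 28.0 and 25.6 CPM in controls, a small fall (-0.33, SE 0.10, adjusted p = 0.0098) that was lost without trametinib 2 (-0.28, adjusted p = 0.051) and with all groups in 1 fit (adjusted p = 0.101). In set 1 it gave 25.1, 20.3 and 25.2 CPM, against 29, 35.8 and 35.1 CPM in controls (-0.49, SE 0.16, adjusted p = 0.046), a call lost when any 1 of 5 libraries (control 2 or 3, trametinib 1, 2 or 3) was left out (-0.54 to -0.40, adjusted p 0.072 to 0.14), with DESeq2, without a filter and with every group fitted together (adjusted p 0.066 to 0.13). The groups of SW620 in set 2 overlapped with trametinib (22.4, 29.6 and 35.4 CPM, against 23.6, 22.6 and 21.6 CPM in controls; 0.36, SE 0.16, adjusted p = 0.29). Without trametinib 1 the SW620 value was 0.54 (adjusted p = 0.043). Palbociclib gave -0.14 in SW48 and -0.12 in SW620, and afatinib 0.46, 0.22 and -0.06 in NCI-N87, MKN-45 and BT-20, none past the test. In NCI-N87 the 3 treated libraries (23.7, 22.5 and 22.7 CPM) were close together and the controls were not (22.9, 18 and 9.77 CPM).

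BMF was called in 2 of 7 comparisons tested, with higher RNA in both. For trametinib in SW48 of set 2 only the treated libraries carried BMF past the filter on low counts. With so few counts in those controls, a fall could not have been called. In SW48 of set 2 it had 3.97, 3.40 and 4.03 CPM with trametinib, against 0.630, 1.01 and 0 CPM in controls, from 39, 31 and 39 counts against 6, 10 and 0 counts. All treated libraries were above all controls (2.74, SE 0.50, adjusted p = 0.00042), and with counts this low the size ran from 2.17 to 3.53 over the 12 alternatives. In set 1 the values were 6.23, 4.61 and 6.31 CPM with trametinib, against 3.99, 0.284 and 3.02 CPM in controls, again with no overlap, but the change did not pass (1.26, SE 0.70, adjusted p = 0.20). In BT-474 afatinib gave 21.0, 19.2 and 20.0 CPM, against 9.06, 11.7 and 12.3 CPM in controls, 1.83-fold higher (0.87, SE 0.14, adjusted p = 0.00037; 0.051 with every group of that set fitted together). Palbociclib libraries of both colorectal lines held 0 to 16 counts and were not tested. In BT-20, NCI-N87 and MKN-45 the values with afatinib were 0.24, -0.28 and -0.07, none past the test. The calls with afatinib in BT-474 were thus higher BCL2L11, BMF and BBC3 and lower PMAIP1, a share of members near that of all genes. Of these calls only that of BCL2L11 held in all 12 alternatives.

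**Figure D3:**
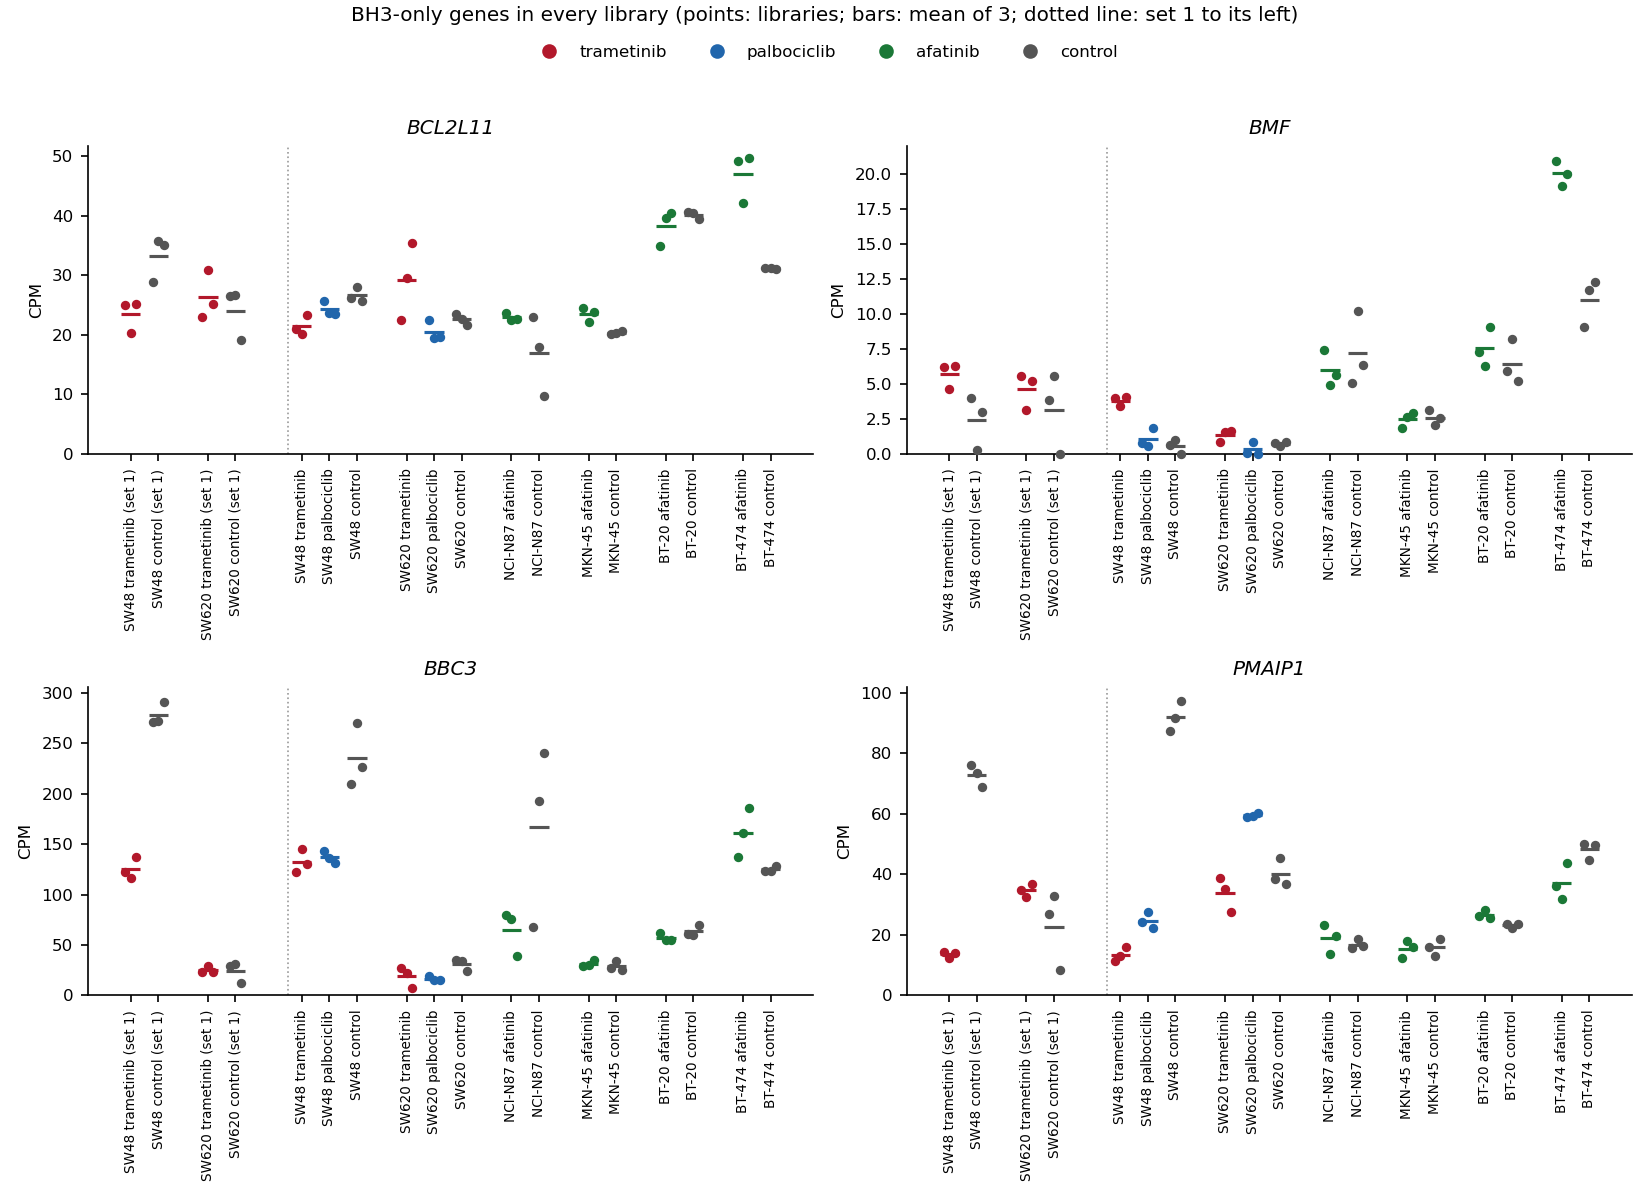
Each panel shows the CPM of 1 BH3-only gene (vertical axis, linear, from 0) in every library, with drug groups left of the controls of the same line; points are libraries, bars are means of 3, and set 1 lies left of the dotted line. For PMAIP1 the SW48 drug groups lie between 11.2 and 27.4 CPM, all below their controls, and for BCL2L11 and BMF the BT-474 afatinib points lie above their controls.

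Of the survival genes, BCL2 fell with palbociclib in both colorectal lines. SW620 had 1.08, 1.14 and 0.717 CPM with palbociclib, against 4.23, 3.98 and 4.53 CPM in controls (12, 13 and 8 counts against 40, 35 and 52), a 4.25-fold lower level (-2.09, SE 0.34, adjusted p = 0.00096). In SW620 BCL2 passed the filter on low counts through the controls, since not every palbociclib library reached the cut-off. With counts this low the size of the fall is uncertain. SW48 had 6.03, 5.80 and 4.74 CPM, against 11.5, 10.4 and 12.6 CPM in controls (-1.06, SE 0.17, adjusted p = 0.0001). Neither pair of groups overlapped. With trametinib SW48 of set 2 had 7.94, 6.81 and 6.62 CPM, below the same controls (-0.71, SE 0.15, adjusted p = 0.0014). In set 1 the SW48 groups overlapped, at 11.5, 4.84 and 14.9 CPM with trametinib, against 18.7, 10.8 and 30.7 CPM in controls (-0.92, SE 0.47, adjusted p = 0.16). SW620 with trametinib in set 2 had 3.25, 3.10 and 2.45 CPM, below all its controls, and did not pass (-0.54, SE 0.23, adjusted p = 0.29). BT-474, the line with the highest BCL2, held 22.5, 26.1 and 30.9 CPM with afatinib, against 25.3, 24.8 and 32.9 CPM in controls (-0.05, SE 0.14, adjusted p = 0.79).

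BCL2L1 (BCL-XL) moved in opposite directions with the 2 drugs in SW48. Palbociclib libraries had 136, 111 and 126 CPM and trametinib libraries 64.9, 68.2 and 90.4 CPM, against 102, 95.3 and 102 CPM in controls. No group overlapped another, with palbociclib above (0.31, SE 0.08, adjusted p = 0.0041) and trametinib below (-0.44, SE 0.10, adjusted p = 0.0027). Set 1 gave 40.8, 36.0 and 39.2 CPM with trametinib, against 79.6, 93.7 and 129 CPM in controls (-1.37, SE 0.18, adjusted p = 0.00088). In SW620 palbociclib gave 176, 168 and 154 CPM, against 91.6, 102 and 126 CPM in controls (0.65, SE 0.12, adjusted p = 0.0015), and trametinib 94.3, 88.8 and 79.7 CPM in set 2 (-0.29, SE 0.13, adjusted p = 0.30). Afatinib changed BCL2L1 by -0.16 to -0.07 in the 4 lines that received it, with no call.

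MCL1, a survival gene whose protein is short-lived, was called in 4 comparisons, with modest changes. In SW48 of set 2 trametinib libraries had 185, 193 and 191 CPM and palbociclib libraries 250, 246 and 226 CPM, against 264, 278 and 291 CPM in controls. Both drug groups lay below the controls (trametinib -0.57, SE 0.06, adjusted p = 3.4e-06; palbociclib -0.22, SE 0.06, adjusted p = 0.0095), and the palbociclib call was lost with all groups in 1 fit (adjusted p = 0.079). Set 1 gave 233, 247 and 237 CPM with trametinib, against 319, 320 and 294 CPM in controls (-0.37, SE 0.08, adjusted p = 0.0079; 0.072 with all groups in 1 fit). In SW620 palbociclib gave 209, 214 and 231 CPM, against 186, 179 and 169 CPM in controls (0.31, SE 0.08, adjusted p = 0.01), a call lost without palbociclib 3 (0.27, adjusted p = 0.0503). In NCI-N87 the 3 afatinib libraries (224, 203 and 194 CPM) lay below the 3 controls (228, 310 and 310 CPM) and did not pass (-0.44, SE 0.15, adjusted p = 0.37). Without control 1 the change in NCI-N87 was -0.58 with an adjusted p of 0.0071. In BT-474 MCL1 had 411, 404 and 370 CPM with afatinib, all below the 414, 460 and 464 CPM of controls, and did not pass (-0.17, SE 0.07, adjusted p = 0.063). It passed with DESeq2, without a filter and without control 1 (-0.22 to -0.17, adjusted p 0.029 to 0.0498).

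The pore formers and BID gave 4 calls with drugs. BAX rose with palbociclib in SW48, with 26.6, 30.8 and 34.2 CPM, against 16.2, 18.1 and 14.4 CPM in controls, a 1.87-fold higher level with no overlap (0.90, SE 0.12, adjusted p = 2.1e-05). In SW620 palbociclib libraries had 30.0, 21.7 and 23.9 CPM, against 17.7, 14.7 and 26.5 CPM in controls, overlapping because of control 3 (0.37, SE 0.20, adjusted p = 0.18; 0.65 with an adjusted p of 0.0081 without it). BAK1 rose with palbociclib in SW620, at 18.6, 15.8 and 16.7 CPM, against 12.3, 11.5 and 13.7 CPM in controls (0.46, SE 0.14, adjusted p = 0.022), and that call was lost without control 1, control 2 or palbociclib 1 (0.39 to 0.45, adjusted p 0.074 to 0.083). BID rose there to 53.6, 52.8 and 52.1 CPM, against 41.2, 44.2 and 46.0 CPM in controls (0.29, SE 0.09, adjusted p = 0.027), and lost the call when any 1 of 5 libraries (control 1 or 2, palbociclib 1, 2 or 3) was left out (0.24 to 0.30, adjusted p 0.056 to 0.13). In SW48 of set 2 BID fell slightly with trametinib, at 56.5, 54.3 and 55.1 CPM, against 67.2, 61.1 and 61.6 CPM in controls (-0.21, SE 0.07, adjusted p = 0.014), a call lost without control 1 or trametinib 2 (-0.19 to -0.18, adjusted p 0.062 to 0.069). In set 1 BID gave -0.19 (SE 0.25), and -0.56 without SW48 trametinib 1 (adjusted p = 0.047). BAK1 in SW48 of set 2 had 16.2, 18.3 and 17.4 CPM with trametinib, against 21.1, 24.5 and 17.8 CPM in controls, and lay just outside the threshold (-0.31, SE 0.13, adjusted p = 0.051). It passed in 5 of 12 alternatives, among them without control 3 (-0.42, adjusted p = 0.012). BAX in SW620 of set 1 shows how 1 library can carry a group, with 12.4, 13.8 and 17.7 CPM with trametinib, against 6.53, 12.1 and 45.1 CPM in controls (-0.54, SE 0.67). Without control 3 that value was 0.66, and neither passed. In BT-20 the BID libraries had 68.3, 71.0 and 71.1 CPM with afatinib, all above the 63.7, 54.7 and 57.4 CPM of controls, and the change did not pass (0.27, SE 0.08, adjusted p = 0.17).

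**Figure D4:**
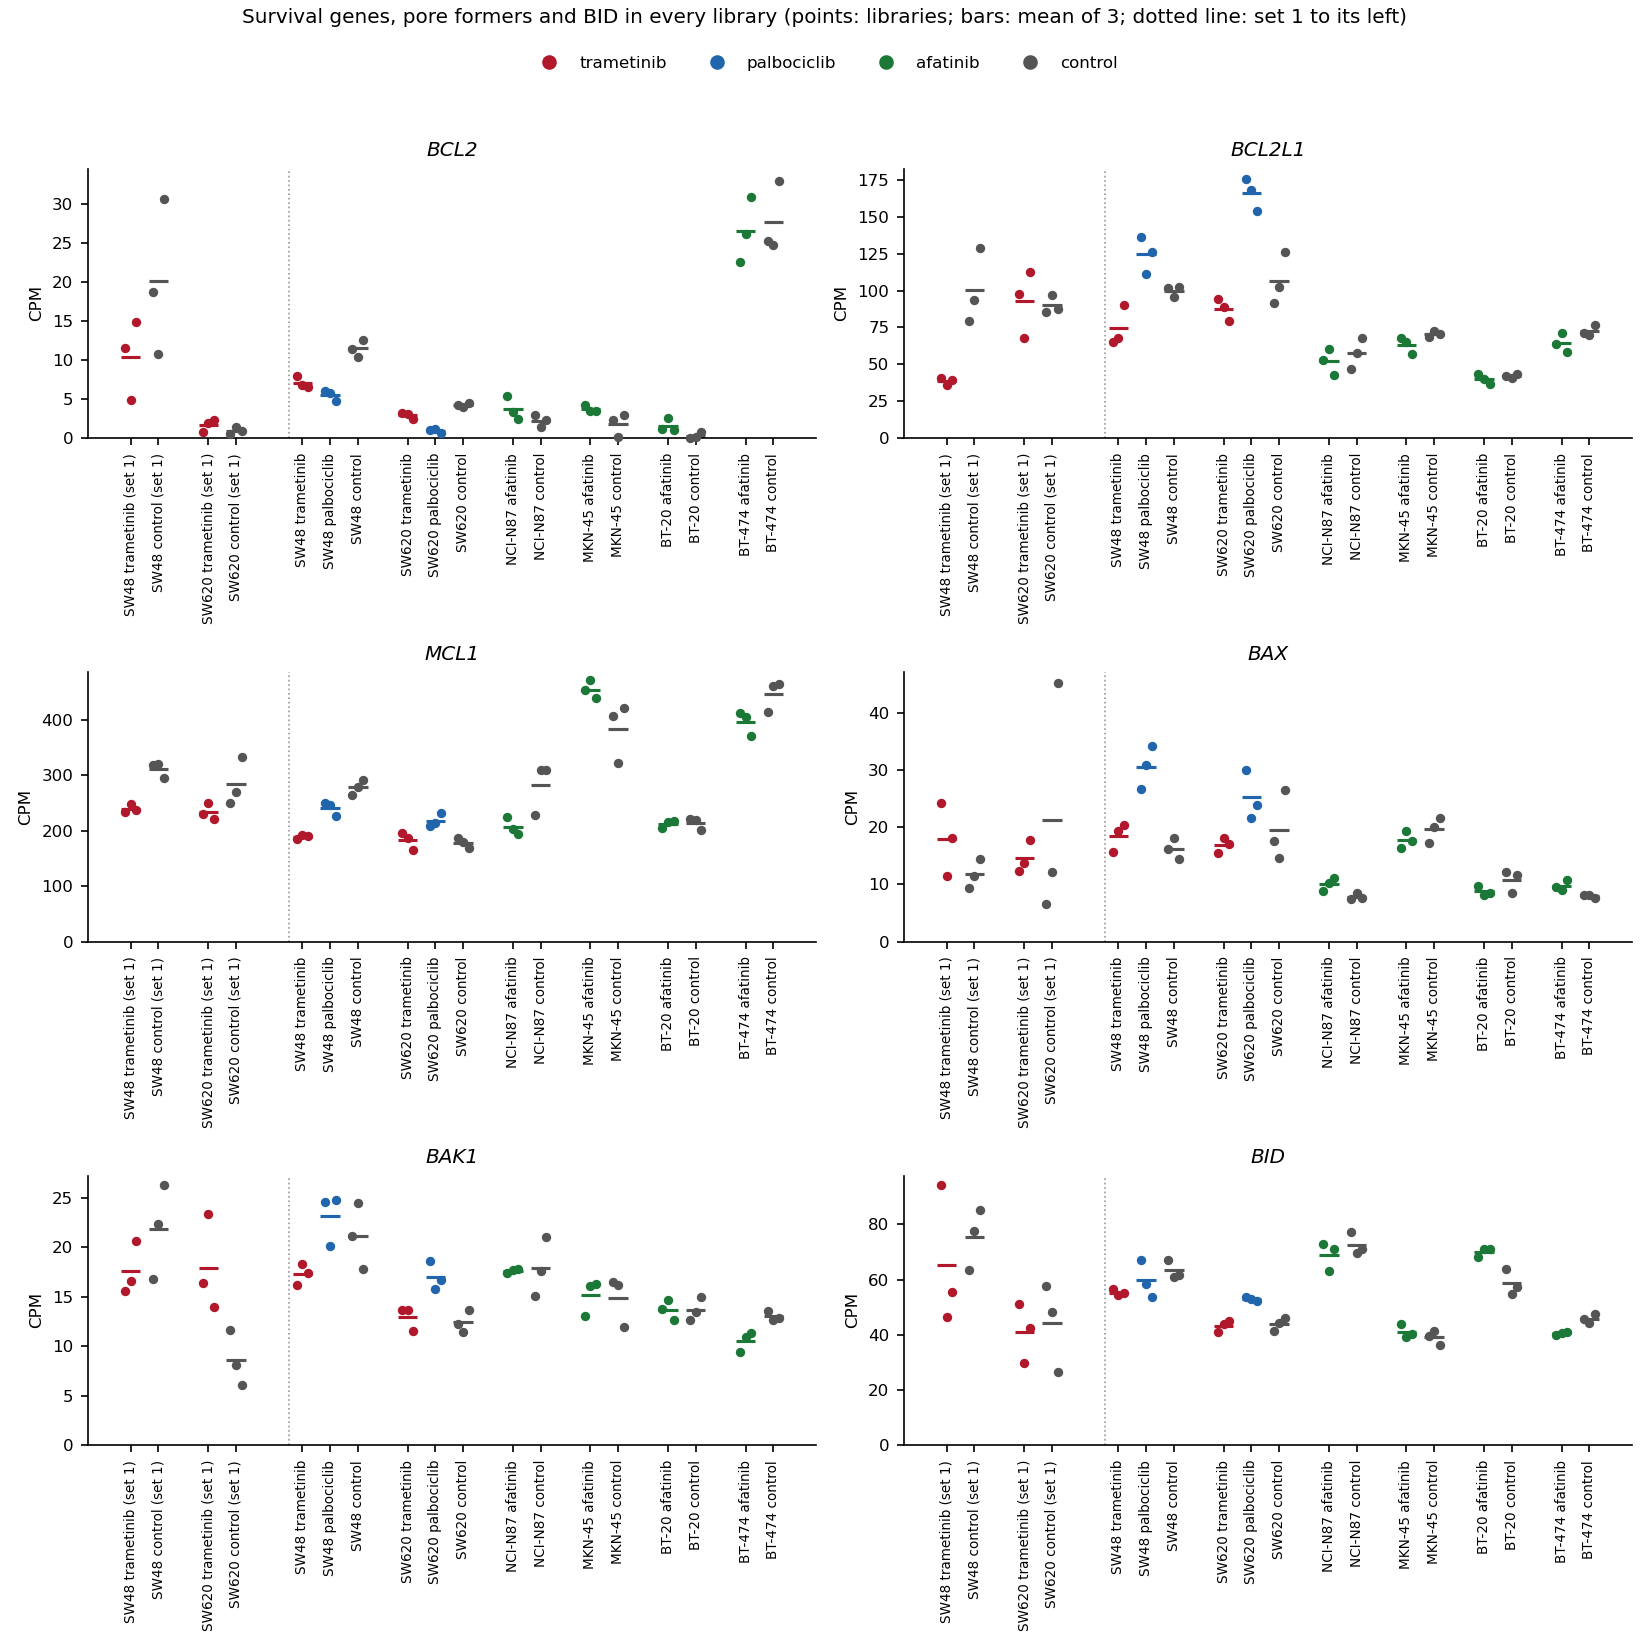
Each panel shows the CPM of 1 gene (vertical axis, linear, from 0) in every library, for the 3 survival genes, the pore formers BAX and BAK1, and BID; points are libraries, bars are means of 3, drug groups stand left of their controls, and set 1 lies left of the dotted line. BCL2L1 in SW48 splits into palbociclib above and trametinib below the controls, and the lone BAX point at 45.1 CPM is SW620 control 3 of set 1.

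Whether a line answered differently from another was tested as the difference of their drug effects. With trametinib in set 2, SW620 minus SW48, 3 of 10 members differed, where 28.2% of 14027 genes did. PMAIP1 differed by 2.57 (SE 0.19, adjusted p = 7.3e-07), since the gene stood at 0.144 of control in SW48 and 0.844 in SW620, MCL1 by 0.62 (SE 0.11, adjusted p = 0.00084) and BCL2L11 by 0.71 (SE 0.20, adjusted p = 0.015; 0.61 with 0.055 without SW48 trametinib 2). In set 1, 2 of 10 differed, where 6.73% of 14525 genes did: PMAIP1 by 3.02 (SE 0.51, adjusted p = 0.006; 2.63 without SW620 control 3) and BCL2L1 by 1.42 (SE 0.30, adjusted p = 0.018). The BCL2L1 difference was lost without SW48 trametinib 2 or SW620 trametinib 3 (1.27 to 1.38, adjusted p 0.054 to 0.056), and without SW620 control 3 BBC3 passed as well (0.89, adjusted p = 0.0038), in a fit that called 2439 genes in place of 978. BAK1 passed without SW620 control 1 (1.64, adjusted p = 0.041), and in set 2 BMF passed without SW48 control 2 (-2.65, adjusted p = 0.044). With palbociclib 4 of 9 differed, where 25.7% of 14098 genes did. PMAIP1 differed by 2.52 (SE 0.13, adjusted p = 6.8e-09), its drug effect being negative in SW48 and positive in SW620, and MCL1 likewise by 0.54 (SE 0.10, adjusted p = 0.00075). BCL2 differed by -1.01 (SE 0.32, adjusted p = 0.03), falling further in SW620 (8 to 13 counts with palbociclib), and BID by 0.40 (SE 0.12, adjusted p = 0.024). The BCL2 and BID differences were lost on leaving out any 1 of 5 and of 8 libraries (-0.98 to -0.84 and 0.31 to 0.38), and that of BCL2 also with all groups in 1 fit (adjusted p = 0.134). BBC3 fell in both lines with palbociclib, and the difference of -0.09 (SE 0.19, adjusted p = 0.80) was not past the test. BCL2L1 passed without SW620 control 3 (0.50, adjusted p = 0.0065).

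With afatinib the breast lines differed in 5 of 10 members, BT-474 minus BT-20, where 23.8% of 14019 genes did. BCL2L11 differed by 0.64 (SE 0.13, adjusted p = 0.0017), PMAIP1 by -0.59 (SE 0.16, adjusted p = 0.012), BID by -0.45 (SE 0.11, adjusted p = 0.0058) and BBC3 by 0.50 (SE 0.14, adjusted p = 0.014; 0.42, just missing the threshold, without BT-20 control 3). BCL2 differed by -2.43 (SE 0.71, adjusted p = 0.02), but this rests on BT-20 libraries with 8, 18 and 8 counts with afatinib, against 0, 1 and 6 counts in controls, and was lost without BT-20 control 1, control 2 or afatinib 2 (-2.04 to -1.91, adjusted p 0.059 to 0.093). Without BT-20 control 3 it was -4.37 (adjusted p = 0.0041). BCL2 was not tested in BT-20 alone, where its counts were too low, and passed the filter here through the BT-474 libraries. BAX passed without BT-20 control 2 (0.72, adjusted p = 0.032). With every group of that set fitted together the differences of BBC3 and PMAIP1 were lost (adjusted p 0.456 and 0.07). BMF did not pass (0.61, SE 0.26, adjusted p = 0.11). Between the stomach lines, MKN-45 minus NCI-N87, no member of 10 differed, where 2 of 13791 genes did (0.0145%; 1578 at an unadjusted p under 0.05, and DESeq2 called 36). Without NCI-N87 control 1, BBC3 and MCL1 differed there by 1.84 and 0.81 (adjusted p 0.0027 and 0.0044), where 9.3% of all genes did.

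The 2 drugs given to the colorectal lines were compared directly, trametinib minus palbociclib. In SW48, 6 of 10 members differed, where 41.9% of 12807 genes did. BMF was higher with trametinib (1.86, SE 0.40, adjusted p = 0.002), and PMAIP1 (-0.88, SE 0.14), BCL2L1 (-0.75, SE 0.11), BAX (-0.73, SE 0.13), BAK1 (-0.43, SE 0.12) and MCL1 (-0.35, SE 0.06) were lower, with adjusted p 0.00013 to 0.01. All 6 held in the 12 alternatives. BMF passed the filter here through the trametinib libraries (31 to 39 counts, against 5 to 16 with palbociclib). With so few counts under palbociclib, a lower level with trametinib could not have been called. BBC3, which both drugs lowered, did not separate them (-0.05, SE 0.07, adjusted p = 0.60). In SW620, 8 of 9 members differed, where 32.7% of 13232 genes did. BCL2L1 (-0.93, SE 0.09), PMAIP1 (-0.82, SE 0.12) and BAX (-0.59, SE 0.14) were lower with trametinib in each of the 12 alternatives, and BCL2 was higher (1.57, SE 0.39, adjusted p = 0.011; 1.53 with 0.054 without SW620 trametinib 2). BCL2 passed the filter in SW620 through the trametinib libraries (25 to 37 counts, against 8 to 13 with palbociclib). The other 4 calls, BCL2L11 (0.50, SE 0.17), MCL1 (-0.26, SE 0.09), BAK1 (-0.40, SE 0.14) and BID (-0.29, SE 0.09), had adjusted p of 0.037 to 0.043 and were each lost on leaving out any 1 of 5 or 6 of the 6 libraries (adjusted p 0.053 to 0.16). Leaving out single libraries took the count of 8 to between 3 and 6. BBC3 passed without SW620 trametinib 3 (0.58, adjusted p = 0.021). Palbociclib thus gave more PMAIP1, BCL2L1 and BAX RNA than trametinib in both lines.

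**Figure D5:**
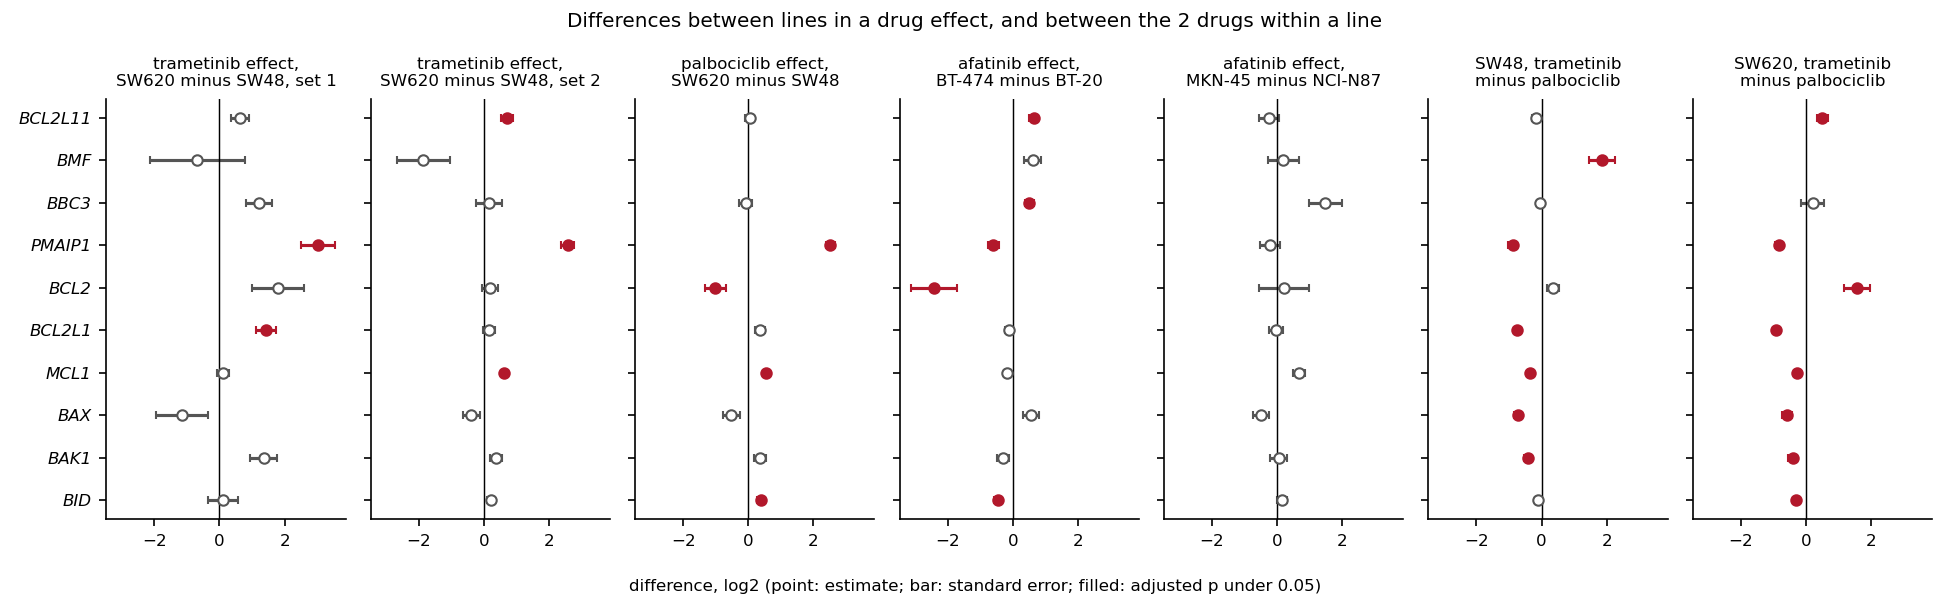
Points are differences on the log2 scale (horizontal axis) for the 10 genes (rows), bars are standard errors and filled points have an adjusted p under 0.05; the 5 left panels give the difference of a drug effect between lines and the 2 right panels trametinib minus palbociclib. PMAIP1 stands at 3.02, 2.57 and 2.52 in the 3 panels of SW620 minus SW48.

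Other genes of the death pathway were taken from 4 lists. Transcription factors known to act on BH3-only genes (13 listed) were lower in SW48 more often than higher, with 1 higher and 10 lower of 13 with trametinib in set 2 (median -0.98), the same counts with palbociclib (median -1.22), and 1 higher and 8 lower of 13 with trametinib in set 1 (median -0.83), against medians of 0.01 over all genes. Of all genes, 30.1% rose and 30.1% fell with trametinib in set 2. The shares were 28.3% and 29.2% with palbociclib, and 16% and 19.4% with trametinib in set 1. DDIT3, which encodes the stress factor CHOP, stood at 12.4 ± 1.41 CPM with trametinib and 28.5 ± 1.67 CPM with palbociclib in SW48 of set 2, against 266 ± 2.83 CPM in controls (-4.44, SE 0.08, and -3.23, SE 0.07). ATF3, a stress-induced ATF factor that acts on PMAIP1, gave -4.08 and -3.84 there, and CEBPB -3.64 and -2.69. In SW620 palbociclib lowered 6 and raised 2 of 12, where 17.4% of all genes fell and 17.6% rose. Among the lowered were ATF3 (-2.37, SE 0.23), DDIT3 (-1.65, SE 0.12) and ATF4 (-1.43, SE 0.10). In BT-474 afatinib raised 3 and lowered 8 of 13, where 20.9% of all genes rose and 21.8% fell. FOXO1 and FOXO4, forkhead factors known to act on BCL2L11, rose by 1.38 (SE 0.24) and 1.34 (SE 0.15), and E2F1, a cell cycle factor that can also act on BH3-only genes, fell by 2.52 on the log2 scale (SE 0.23). Whether any of these factors had a part in the changes of the members was not tested.

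Among 13 other BCL2 family genes, BAD, a BH3-only antagonist of BCL2 and BCL-XL, rose with palbociclib in SW48 (45.9 ± 8.09 CPM, against 21.9 ± 2.20 CPM in controls; 1.05, SE 0.12) and in SW620 (0.71, SE 0.11). BAD also rose with trametinib in SW48 of set 2 (0.55, SE 0.10) and fell with afatinib in BT-474 (-0.26, SE 0.09). BOK, a relative of BAX, rose with palbociclib in both lines (0.91, SE 0.13 in SW48 and 2.46, SE 0.42 in SW620). In SW620 this list had 5 higher and 1 lower of 10 tested with palbociclib, where 17.6% of all genes rose and 17.4% fell. The lower one was HRK, a BH3-only gene, at 0.149 ± 0.0532 CPM, against 1.35 ± 0.111 CPM in controls (-3.07, SE 0.62, from 1 to 2 counts against 12 to 15). HRK passed the filter on low counts through the controls alone. BCL2L2, which encodes the survival protein BCL-W, fell in SW48 with trametinib in both sets (-1.11, SE 0.16 and -0.73, SE 0.14) and with palbociclib (-0.70, SE 0.15). BCL2L15 rose in SW48 with trametinib in set 1 (30.3 ± 1.30 CPM, against 1.96 ± 0.559 CPM in controls; 3.96, SE 0.25) but did not pass in set 2 (9.22 ± 0.417 CPM, against 7.28 ± 1.15 CPM in controls; 0.32, SE 0.16, adjusted p = 0.10). It was the 1 gene of this list called in BT-20 (2.14 ± 0.615 CPM, against 0.0830 ± 0.0719 CPM in controls; 4.40, SE 0.69), from 12 to 19 counts against 0 to 1. BCL2L15 passed the filter on low counts there through the afatinib libraries. With so few counts in the BT-20 controls, a fall could not have been called.

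Downstream of the pore, among 18 genes of the apoptosome, the caspases and their inhibitors, APAF1, the scaffold of the apoptosome, and CASP9, its caspase, rose with trametinib in SW48 of set 2 (1.45, SE 0.18 and 0.99, SE 0.15) and with palbociclib (0.84, SE 0.21 and 0.73, SE 0.19). CYCS, cytochrome c, fell with trametinib in that set (-0.77, SE 0.08). In set 1 none of the 3 passed with trametinib (APAF1 0.51, SE 0.26, adjusted p = 0.16; CASP9 0.26, SE 0.24, adjusted p = 0.45; CYCS 0.01, SE 0.09, adjusted p = 0.92). The list had 5 higher and 6 lower of 16 with trametinib in set 2, where 30.1% of all genes rose and 30.1% fell, and 4 and 8 with palbociclib, where 28.3% rose and 29.2% fell. In BT-474 afatinib lowered 5 of 16 and raised none, where 20.9% of all genes rose and 21.8% fell. The largest fall was that of BIRC5, which encodes survivin and is transcribed in dividing cells (17.2 ± 1.70 CPM, against 117 ± 6.82 CPM in controls; -2.75, SE 0.10). Among genes for turnover and anchoring of the family's proteins, UBE2C, an enzyme of the mitotic ubiquitin ligase that is itself tied to division, fell most there (-3.20, SE 0.08), and DYNLL1, the dynein light chain that holds BIM, fell by 0.53 on the log2 scale (SE 0.07). With trametinib in SW48, BIRC5 rose in set 1 (0.96, SE 0.26) and UBE2C in sets 1 and 2 (0.87, SE 0.10 and 0.34, SE 0.07). Both genes fell with palbociclib in SW620 (-0.80, SE 0.09 and -0.63, SE 0.07). In SW48 trametinib gave VDAC2, the mitochondrial channel that recruits BAK, -0.64 (SE 0.10) in set 1 and -0.37 (SE 0.07) in set 2. None of these 4 lists had a call in SW620 with trametinib in either set, in NCI-N87 or in MKN-45, where no gene passed. Without NCI-N87 control 1 there were 4 calls among the other family genes, 2 in the apoptosome list, 6 among the transcription factors and 2 in the turnover list, and without SW620 trametinib 1 of set 2 there were 1, 2, 2 and 0, in fits where 16.4% and 6.71% of all genes passed.

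Across the 42 libraries of set 2, after the mean of each line was taken off, some genes followed the members closely. For PMAIP1 the highest Pearson correlations of log2 CPM among 16428 genes were with GADD45A (0.94), KLF5 (0.91) and SERPINB1 (0.91), for BCL2L1 with ELOVL1 (0.90), TSTA3 (0.90) and C1orf122 (0.89), and for MCL1 with ZFAND3 (0.85), PFN1 (0.85) and TRAF4 (0.83). BBC3 was most like SLC43A1 (0.82), NFE2L1 (0.81) and HERPUD1 (0.81), BMF like EMP2 (0.79), WSB1 (0.79) and AGO4 (0.76), and BCL2L11 like SHANK2 (0.79), DMTF1 (0.79) and LRRC16A (0.78). For BCL2 and BID no correlation was over 0.71 and 0.74. Among pairs of members the highest values were 0.67 for BCL2L1 and BAK1 and 0.63 for PMAIP1 and MCL1, and the lowest was -0.69 for PMAIP1 and BMF. BMF held 0 to 10 counts in SW48 controls and in SW620 palbociclib libraries, so its values rest partly on libraries near the floor. All these correlations are descriptions over libraries that share lines, controls and drug groups, and the genes named were picked as the highest of all genes.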

How the data were processed

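RNA was counted in 54 libraries by 3′ end sequencing (Lexogen QuantSeq, per the labels' protocols). Per the submitters' processing notes, the authors used Trimmomatic, STAR and featureCounts with the build hg38; their versions, the annotation and the strand setting are not stated. The deposited values are raw counts per gene, whole numbers with no normalization. The set 1 table also holds 5 lines that name no gene, with 39.7% to 73.8% of its reads per library, which were left out, and the set 2 table repeats the 12 set 1 libraries unchanged, which were not used again.

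The fits, 1 per comparison and on the groups compared alone, were made in R 4.3.3 with edgeR 4.0.16: filterByExpr (minimum count 10, minimum total 15), TMM, a two-sided quasi-likelihood F-test, and Benjamini-Hochberg adjustment over all genes tested, with a threshold of 0.05. The SE is the fold change over the root of F. Printed CPM use TMM over all libraries of a set, so ratios of CPM differ slightly from fitted fold changes. The 18 comparisons were 10 of a drug with controls, 5 between lines, 2 between drugs and 1 of 6 untreated lines. Alternatives were DESeq2 size factors, no filter, DESeq2 1.42.0, all groups of a set in 1 fit, a replicate block, a robust dispersion, each library left out in turn, and CPM without TMM for levels. Named are all members, up to 4 called genes per list and comparison with the largest change (some left out for length), and the 3 genes most like each member called in at least 2 drug comparisons, over genes with 10 counts in 3 libraries (log2 CPM, prior count 2; those of BCL2 and BID are given by their highest value only). The members and lists were chosen with earlier results of these data known. The result of 1 gene of the lists is not reported here.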

Additional observations from a re-analysis of the deposited data

Results flagged for a closer look

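Between SW620 and SW48 the effect of trametinib differed for PMAIP1 in both sets (3.02 in set 1 and 2.57 in set 2, SW620 minus SW48 on the log2 scale), for BCL2L1 in set 1 (1.42), and for BCL2L11 (0.71) and MCL1 (0.62) in set 2. BCL2L1 was not past the test in set 2 (0.17), nor BCL2L11 and MCL1 in set 1 (0.63 and 0.09). The effect of palbociclib differed between the same lines for PMAIP1 (2.52), BCL2 (-1.01), MCL1 (0.54) and BID (0.40). With trametinib these were 2 of 10 members in set 1 and 3 of 10 in set 2, where 6.73% and 28.2% of all genes differed. With palbociclib they were 4 of 9 members, where 25.7% of all genes differed. The BCL2 value rests partly on SW620 palbociclib libraries of 13 counts or fewer. The 2 trametinib values of PMAIP1 are not given as a repeat, since the lines of set 1 are names from the labels.

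Between BT-474 and BT-20 the effect of afatinib differed for BCL2L11 (0.64), BBC3 (0.50), PMAIP1 (-0.59), BCL2 (-2.43) and BID (-0.45), BT-474 minus BT-20. These were 5 of 10 members, where 23.8% of all genes differed. The BCL2 value rests on BT-20 libraries of 18 counts or fewer. Each of these differences passed the test of the difference itself, and those lost on leaving out 1 library are named with the results.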

How the results depend on the processing

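No called value of a member changed sign under any alternative. Over 164 fitted values of members, the side of the threshold was kept by 163 with DESeq2 size factors, 163 with a robust dispersion, 153 without a filter, 156 with the replicate block and 150 with all groups of a set in 1 fit, and by 157 of 163 with DESeq2. Counts of members called moved as follows. With all groups in 1 fit they were 3 (main count 5) for trametinib in SW48 of set 1, 1 (4) for afatinib in BT-474, 3 (5) for BT-474 minus BT-20, and 2 (0) for afatinib in NCI-N87 and for MKN-45 minus NCI-N87. Without a filter they were 1 (0) for afatinib in NCI-N87 and for MKN-45 minus NCI-N87, and 5 (8) for trametinib minus palbociclib in SW620. DESeq2 gave 4 (2) for trametinib, SW620 minus SW48, set 1. Each library left out in turn gave 4 to 5 for trametinib in SW48 of set 1, 6 to 9 (8) in set 2, 0 to 1 (0) in SW620 of set 2 (1 without trametinib 1), 5 to 8 (7) for palbociclib in SW620, 0 to 2 (0) for afatinib in NCI-N87, 3 to 4 in BT-474, 1 to 3 (2) for SW620 minus SW48 with trametinib in set 1, 2 to 4 (4) with palbociclib, 0 to 2 (0) for MKN-45 minus NCI-N87, and 3 to 6 (8) for trametinib minus palbociclib in SW620. The cause was not tested, beyond the fewer libraries of such fits. Replicate numbers did not pair libraries: in 0 of 12 comparisons did all 3 same-numbered pairs correlate over 0.1. The replicate block gave 4 members (8) for trametinib minus palbociclib in SW620 and moved no other count of members by over 1.5 times. It ended the calls of BCL2L11, MCL1, BAK1 and BID in that comparison, of BCL2L11 for trametinib in SW48 of set 1 (adjusted p = 0.094) and of BID for palbociclib in SW620 (0.051), and made calls of BCL2 in SW48 of set 1 (-0.95, 0.025) and BAK1 in SW48 of set 2 (-0.30, 0.044). Counts over all genes moved by over 1.5 times with every group fitted together for trametinib in SW48 of set 1 (2227, main 4331), for BT-474 minus BT-20 (1943, main 3336) and for MKN-45 minus NCI-N87 (437, main 2; 140 without a filter, 1315 without NCI-N87 control 1), for SW620 minus SW48 with trametinib in set 1 with DESeq2 (1830, main 978; 493 to 2439 over single libraries left out), and for afatinib in BT-20 with the block (5, main 75), besides those given with the results. BMF in the colorectal lines, BCL2 in BT-20 and in SW620 with palbociclib, BCL2L15 in BT-20 and HRK were limited by depth.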
